A study of Mus musculus and Rattus norvegicus with 32 samples.

Results

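The genes described here are 49 genes of the cell cycle and of DNA replication, chosen by symbol. Of these, 25 act at the passage from G1 into S phase or during replication (G1/S members) and 24 act in G2 phase and mitosis (G2/M members). All 49 had a row among the 55487 genes of the mouse tables, and 46 had a row by symbol among the 32883 genes of the rat table, where Ccnb2, E2f1 and Chek1 were not matched and were not analysed. The study asked what the loss or gain of METTL5 does to the heart. METTL5 is the enzyme that places an N6-methyladenosine on 18S ribosomal RNA. RNA was sequenced in 32 libraries, 4 in each of 8 groups. The mouse libraries came from hearts of C57BL/6 mice. METTL5 knockout (METTL5-KO) hearts were set against control hearts at the age of 1 month. Hearts of 3-month-old METTL5-cKO mice, in which αMHC-Cre deletes a floxed Mettl5 allele in cardiomyocytes only, were set against those of control mice, and a label field of these mutants reads Mettl5-KO while their titles read Mettl5-cKO. METTL5-cKO and control mice, labelled 3-month-old as well, were also compared 4 weeks after transverse aortic constriction (TAC), a band on the aorta that overloads the left ventricle. In these hearts the other cell types keep their Mettl5. The rat libraries were neonatal rat ventricular cardiomyocytes (NRVMs) of Sprague Dawley rats, taken on postnatal day 2 and pre-plated to remove fibroblasts. They received an adenovirus with human METTL5 under the mCMV promoter (AdMETTL5) or with GFP (AdGFP), and both groups were given 20 µM phenylephrine (PE), an adrenergic agonist that makes cardiomyocytes grow, for 24 h.

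A cell enters S phase when cyclin D and cyclin E kinases release the E2F factors from the retinoblastoma protein. E2F then switches on the genes that load the MCM helicase on replication origins, supply deoxynucleotides and copy the DNA. A later wave of genes, driven by the B-Myb and Foxm1 factors, brings in cyclin B, Cdk1, the spindle and the machinery of chromosome segregation. Cardiomyocytes leave the cell cycle around birth and seldom divide in the adult heart, where most dividing cells are of other types.

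Values are CPM, counts relative to the library size as scaled by TMM within each table unless stated otherwise. A change is a log2 fold change with its standard error (SE). A gene was called changed where the adjusted p of edgeR's quasi-likelihood test, corrected by Benjamini-Hochberg over all genes tested in that table, was under 0.05. Total counts per library were 20382162 to 21739203 in the hearts at 1 and 3 months, 19899033 to 21804907 after TAC, 17344430 to 18085339 with AdGFP and 14324700 to 14642431 with AdMETTL5. The gene-level count of Mettl5 did not separate the mouse genotypes, since its log2 fold change was 0.22 at 1 month, -0.18 at 3 months and -0.04 after TAC. A count of the whole gene is not split by exon, and why it did not separate the genotypes was not tested. It therefore does not check the genotype labels. In NRVMs rat Mettl5 ranged from 16.2 to 18.0 CPM with AdGFP and from 19.1 to 23.0 CPM with AdMETTL5. The construct carries the human sequence, which the rat row need not count. Nothing in the labels says that the 4 libraries of a rat group came from separate cultures, so their spread may be technical.

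The summed level of the members differed widely between the systems. The G2/M members together ranged from 895 to 938 CPM in the AdGFP libraries and from 1024 to 1067 CPM in the AdMETTL5 libraries. In control hearts they ranged from 12.8 to 222 CPM at 1 month, from 20.2 to 36.8 CPM at 3 months and from 35.3 to 61.9 CPM after TAC. The 1-month control hearts were therefore far apart, with library 1 below and library 2 above every other library of that table. In mutant hearts the G2/M sum ranged from 45.9 to 136 CPM at 1 month, from 32.7 to 44.2 CPM at 3 months and from 40.8 to 95.9 CPM after TAC, and each range overlapped that of its controls. The sum of the G1/S members ranged from 169 to 203 CPM in the control hearts after TAC and from 241 to 348 CPM in the METTL5-cKO hearts, with no overlap. On the same scale Ccnd2 alone ranged from 69.2 to 86.8 CPM in these controls and from 131 to 184 CPM in the METTL5-cKO hearts. Without Ccnd2 the summed ranges of the other G1/S members overlapped. For that sum, the Ccnd2 value taken off was the one scaled within the TAC table. The G1/S sum ranged from 1114 to 1151 CPM with AdGFP and from 1725 to 1823 CPM with AdMETTL5, also with no overlap. In bulk RNA a sum of this kind cannot tell fewer cells of a type from less RNA per cell. The mouse sums were scaled over all 24 mouse libraries together and the rat sums within the rat table. Mouse and rat values were not tested against each other.

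**Figure D1:**
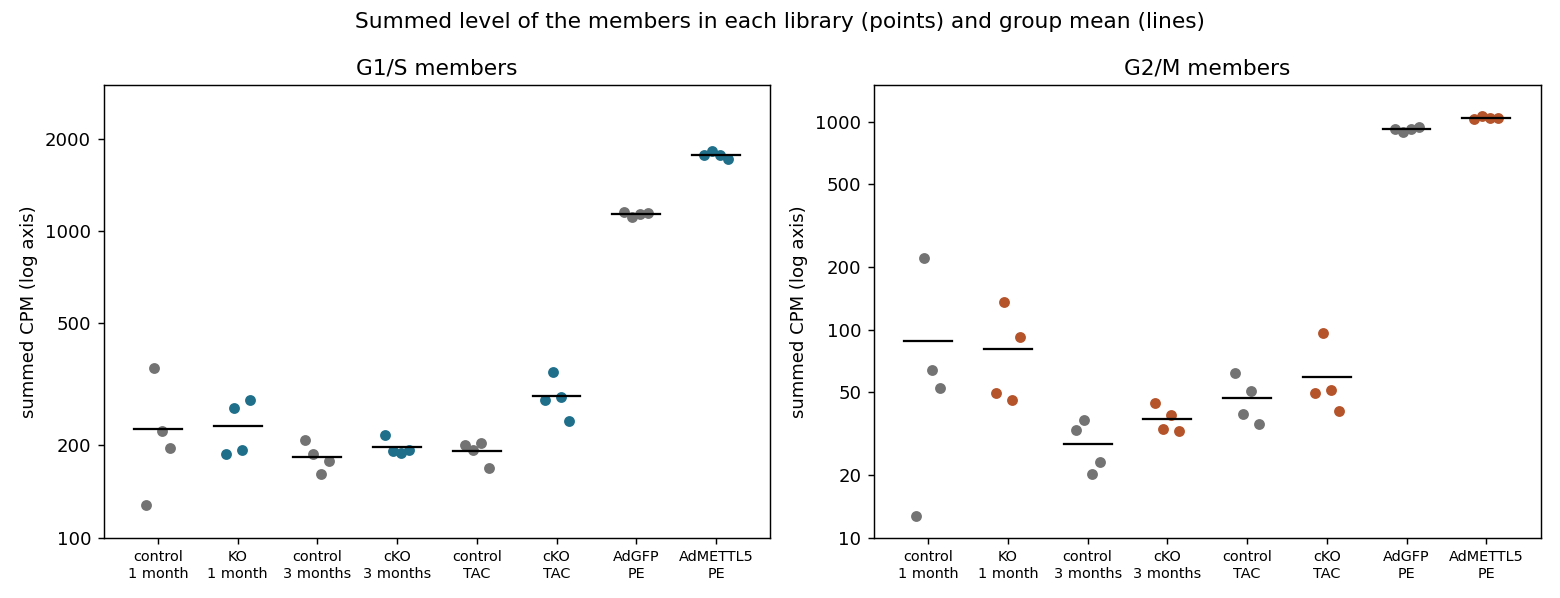
Summed CPM (log axis) of the G1/S members (left) and the G2/M members (right) in each library, with grey points for control groups, coloured points for METTL5 groups and a line at each group mean. The mouse sums were scaled over all mouse libraries together. The sums lie far higher in NRVMs than in hearts. The 1-month control hearts spread from 12.8 to 222 CPM for the G2/M members. The G1/S sum with AdMETTL5 lies above that with AdGFP in all 4 libraries.

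In NRVMs under PE, the G1/S members were higher with AdMETTL5 nearly as a block. Of the 23 G1/S members tested, 21 rose, 1 (Ccnd2) fell and 1 (Gins1) did not pass the test. The background in this table was high, since 27.1% of the 15041 genes tested rose and 25.7% fell. The median log2 fold change of the G1/S members was 0.71 beside -0.00218 over all genes tested, and the range was -0.44 to 1.73. The AdMETTL5 libraries lay above all AdGFP libraries for 21 of the 23 and below them for 1, where 25.2% of all genes were higher and 23.1% lower without overlap. Only 6 of the G1/S members changed by more than 1 on the log2 scale.

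The kinase that opens S phase and its partners moved most. Ccne2 (cyclin E2) read 15.3, 14.3, 16.7 and 16.3 CPM in the 4 AdGFP libraries and 48.1, 55.2, 52.0 and 51.7 CPM in the 4 AdMETTL5 libraries. Every AdMETTL5 library was thus far above the controls (log2 fold change 1.73, SE 0.0657, adjusted p = 7.51e-09). Ccne1 (cyclin E1) read 20.2, 14.4, 16.3 and 17.9 CPM with AdGFP and 38.6, 39.2, 39.7 and 40.1 CPM with AdMETTL5 (log2 fold change 1.20, SE 0.0840, adjusted p = 3.62e-07). Cdk2, the kinase that both E cyclins activate, read 45.5, 44.5, 47.8 and 42.8 CPM with AdGFP and 109, 111, 102 and 98.2 CPM with AdMETTL5 (log2 fold change 1.22, SE 0.0546, adjusted p = 1.54e-08). None of these 3 genes had overlapping groups. The D cyclins, which respond to growth signals, did not follow them. Ccnd2 read 66.4, 71.0, 76.9 and 82.4 CPM with AdGFP and 53.1, 52.5, 53.6 and 59.9 CPM with AdMETTL5, so that the highest AdMETTL5 library lay below the lowest control (log2 fold change -0.44). Ccnd1 rose, but by a log2 fold change of only 0.16, from 164 ± 5.02 to 184 ± 8.37 CPM (SD, n = 4).

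All 3 E2F factors with a row rose. E2f8, a repressor of the family that is itself an E2F target, read 11.3, 10.8, 10.7 and 10.3 CPM with AdGFP and 24.7, 26.2, 22.0 and 20.7 CPM with AdMETTL5 (log2 fold change 1.12, SE 0.0833, adjusted p = 5.78e-07). E2f7, the related repressor, and E2f2, an activator, had log2 fold changes of 0.70 and 0.81. E2f2 stayed low, at 2.92 to 3.78 CPM with AdGFP and 4.92 to 6.30 CPM with AdMETTL5.

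The 9 genes of origin licensing and of the MCM helicase all rose, by log2 fold changes from 0.31 to 1.18. The subunits of the helicase ring did not rise by the same amount. Mcm3 read 53.8, 49.7, 54.1 and 51.0 CPM with AdGFP and 121, 125, 117 and 110.1 CPM with AdMETTL5 (log2 fold change 1.18, SE 0.0524, adjusted p = 1.45e-08). Mcm6 read 59.6, 55.1, 62.6 and 59.7 CPM with AdGFP and 131, 132, 133 and 129 CPM with AdMETTL5 (log2 fold change 1.15, SE 0.0469, adjusted p = 1.19e-08). Mcm7 read 90.0, 86.9, 90.3 and 88.5 CPM with AdGFP and 113, 112, 110.2 and 107 CPM with AdMETTL5 (log2 fold change 0.31, SE 0.0399, adjusted p = 4.07e-05). Both groups of Mcm7 were tight and apart, but its difference was the smallest of the ring. The other subunits lay between, with log2 fold changes of 0.91 for Mcm4 (SE 0.0487), 0.71 for Mcm5 (SE 0.0585) and 0.56 for Mcm2 (SE 0.0461). The differences between subunits were not tested.

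Cdc6 and Cdt1 load the helicase on the origin. Cdc6 rose from 9.76 ± 0.368 to 15.9 ± 0.753 CPM (log2 fold change 0.71, SE 0.0698, adjusted p = 5.50e-06), and Cdt1 rose from 19.6 ± 2.06 to 31.7 ± 1.05 CPM (log2 fold change 0.69, SE 0.0742, adjusted p = 1.05e-05). Mcm10, which helps to start the fork, had a log2 fold change of 0.47. 5 of the 6 genes of the fork and of nucleotide supply with a row rose. Rrm1, the large subunit of ribonucleotide reductase, read 169.9, 172, 161 and 167 CPM with AdGFP and 274, 294, 289 and 261 CPM with AdMETTL5 (log2 fold change 0.74, SE 0.0482, adjusted p = 1.93e-07). Rrm2, the small subunit that limits the enzyme in S phase, moved less, with a log2 fold change of 0.31 and 33.3 to 37.0 CPM against 39.7 to 48.0 CPM. Tyms, which makes thymidylate, rose from 29.4 ± 1.89 to 51.4 ± 3.22 CPM (log2 fold change 0.80, SE 0.0631, adjusted p = 8.44e-07). Pcna, the sliding clamp of the fork, had a log2 fold change of 0.42. The GINS complex, part of the active helicase, was uneven. Gins2 rose from 36.1 ± 1.59 to 46.9 ± 1.60 CPM (log2 fold change 0.38, SE 0.0514, adjusted p = 6.62e-05), while Gins1 read 8.06, 6.80, 8.28 and 8.31 CPM with AdGFP and 8.43, 9.25, 7.61 and 7.24 CPM with AdMETTL5, with overlapping groups (log2 fold change 0.05, SE 0.104).

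The G2/M members were split in the same libraries. Of the 23 tested, 11 rose, 4 fell and 8 did not pass the test, where 27.1% of all genes rose and 25.7% fell. The share that fell was thus below that of all genes. Their median log2 fold change was 0.16 (range -0.30 to 0.79), beside 0.71 for the G1/S members. None of them changed by more than 1 on the log2 scale. The libraries did not overlap for 10 members that were higher and 3 that were lower, where 25.2% of all genes were higher and 23.1% lower without overlap. The split depended on the scaling. Scaling by library size alone moved the all-gene median to 0.133 on the log2 scale, and then 14 G2/M members were higher and 0 lower, and over all genes 71.5% of the calls were higher, against 51.4% with TMM.

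Mki67, whose protein coats mitotic chromosomes and is the usual mark of cycling cells, moved most among them. It read 79.5, 89.1, 94.6 and 96.7 CPM with AdGFP and 144, 159.9, 159 and 159 CPM with AdMETTL5 (log2 fold change 0.79, SE 0.0633, adjusted p = 1.04e-06). All 4 AdMETTL5 libraries were well above the controls. Ccna2 (cyclin A2), which acts from S phase into G2, read 34.3, 32.7, 34.3 and 34.6 CPM with AdGFP and 49.3, 51.4, 44.4 and 45.5 CPM with AdMETTL5 (log2 fold change 0.49, SE 0.0575, adjusted p = 2.21e-05). Kif11, the motor that separates the spindle poles, rose from 27.2 ± 1.60 to 36.6 ± 3.27 CPM (log2 fold change 0.43, SE 0.0707, adjusted p = 0.000311). Anln (anillin), a scaffold of the cleavage furrow, rose from 66.6 ± 5.31 to 87.4 ± 4.41 CPM (log2 fold change 0.39, SE 0.0612, adjusted p = 0.000200). Top2a, which untangles the DNA of sister chromatids, rose from 89.6 ± 5.81 to 103 ± 2.38 CPM (log2 fold change 0.20, SE 0.0518, adjusted p = 0.00570). The spindle factor Tpx2 (log2 fold change 0.20, SE 0.0496, adjusted p = 0.00494) and the kinetochore motor Cenpe (log2 fold change 0.20, SE 0.0589, adjusted p = 0.0137) also rose without overlap.

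The mitotic regulators that rose did so by small amounts. Foxm1, a transcription factor of the G2/M genes, read 35.1, 34.9, 30.3 and 37.4 CPM with AdGFP and 44.2, 34.9, 44.1 and 45.8 CPM with AdMETTL5 (log2 fold change 0.30, SE 0.0883, adjusted p = 0.0136), and its groups overlapped because AdMETTL5 library 2 was as low as the controls. Aurkb, the kinase of the chromosomal passenger complex, rose from 27.7 ± 1.92 to 32.8 ± 1.11 CPM (log2 fold change 0.24, SE 0.0605, adjusted p = 0.00483). Its partner Birc5 (survivin) had overlapping groups (log2 fold change 0.33, SE 0.120, adjusted p = 0.0355), and its adjusted p lay between 0.00533 and 0.117 over 13 alternatives. Aurka, the kinase of the spindle poles, was at the threshold (log2 fold change 0.16, SE 0.0617, adjusted p = 0.0472), and passed it in only 1 of 13 alternatives, with an adjusted p between 0.00420 and 0.131.

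The 4 genes that fell act in mitosis. Cdk1, the kinase that drives mitosis, read 46.6, 40.7, 46.1 and 43.9 CPM with AdGFP and 36.5, 38.0, 35.4 and 36.4 CPM with AdMETTL5 (log2 fold change -0.28, SE 0.0558, adjusted p = 0.00129). Cdc20, which activates the anaphase-promoting complex, read 47.7, 45.2, 45.0 and 47.1 CPM with AdGFP and 37.3, 41.8, 39.7 and 39.8 CPM with AdMETTL5 (log2 fold change -0.22, SE 0.0506, adjusted p = 0.00285). Both genes were lower in every AdMETTL5 library than in any control. Nusap1, a spindle protein, fell from 26.0 ± 1.93 to 21.1 ± 2.04 CPM (log2 fold change -0.30, SE 0.0798, adjusted p = 0.00763). Ube2c, the ubiquitin-conjugating enzyme of the same complex, fell from 31.2 ± 3.04 to 25.6 ± 2.93 CPM with overlapping groups (log2 fold change -0.29, SE 0.0892, adjusted p = 0.0174). On library size alone none of these 4 passed, with adjusted p of 0.0818, 0.208, 0.156 and 0.158, although each stayed negative. Ube2c also lost its call without AdGFP library 1 (adjusted p = 0.0512) and without AdMETTL5 library 3 or 4 (0.0594 and 0.0510). The 8 that did not pass were Ccnb1, Plk1, Bub1, Bub1b, Cenpf, Kif20a, Kif23 and Prc1, between -0.18 for the checkpoint kinase Bub1 and 0.16 for its relative Bub1b on the log2 scale. The AdMETTL5 libraries lay above all AdGFP libraries for Bub1b (adjusted p = 0.0540). Plk1, the polo-like kinase of mitosis, ranged from 36.5 to 41.3 CPM with AdGFP and from 36.7 to 40.4 CPM with AdMETTL5. Ccnb1 (cyclin B1), the partner of Cdk1, read 25.4, 22.9, 20.8 and 23.1 CPM with AdGFP and 21.3, 23.3, 23.3 and 23.9 CPM with AdMETTL5, which is a log2 fold change of -0.00467 with an SE of 0.0703.

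**Figure D2:**
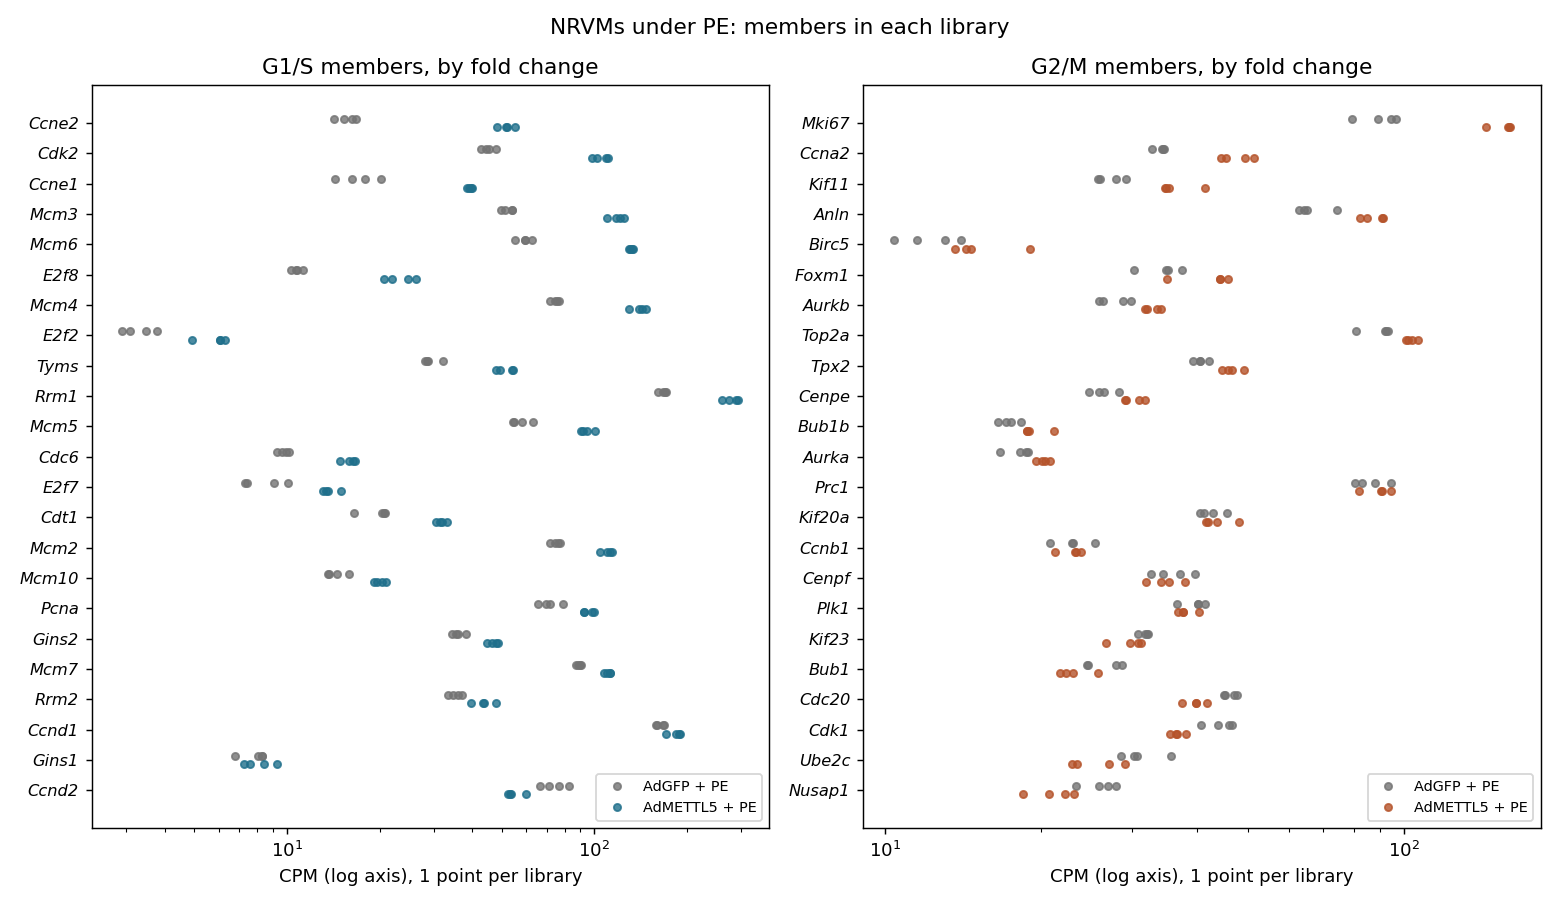
CPM (log axis) of each tested member in the NRVM libraries, with grey points for the 4 AdGFP libraries, coloured points for the 4 AdMETTL5 libraries, G1/S members on the left and G2/M members on the right, each panel ordered by fold change. The AdMETTL5 points lie to the right of the AdGFP points without overlap for 21 of 23 G1/S members and for 10 of 23 G2/M members.

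Markers of cell types moved with the same contrast, where 27.1% of all genes tested rose and 25.7% fell. All 12 cardiomyocyte markers with a row fell, and their summed level ranged from 44820.3 to 54966 CPM with AdGFP and from 17308 to 19199.5 CPM with AdMETTL5. Of 11 fibroblast markers 8 fell and 0 rose, with a summed level from 11648 to 12272 CPM and from 9200.0 to 10140.5 CPM. Of 10 markers of smooth muscle and pericytes 4 rose and 2 fell, and of the 9 endothelial markers tested 2 rose and 1 fell. Of the macrophage markers 3 of 6 tested fell and Cd163 was at 0 in every library. The only lymphocyte marker tested fell, and 8 of the 11 with a row were at 0 in every library. The erythroid markers Alas2 and Hbb-bs were at 0 as well. The part of these markers in the results above was not tested. The AdMETTL5 libraries also had fewer total counts than every AdGFP library, and the part of depth was not tested.

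Most other replication genes were higher with AdMETTL5 too, where 27.1% of all genes tested rose and 25.7% fell. Of 46 other replication genes 35 rose and 2 fell, with a median log2 fold change of 0.46. The 5 with the smallest adjusted p were Rpa1, which binds single-stranded DNA (log2 fold change 1.02, SE 0.0474, adjusted p = 1.94e-08), Fen1, the flap endonuclease (log2 fold change 1.49, SE 0.0706, adjusted p = 2.27e-08), Wdhd1, an adaptor of the fork (log2 fold change 1.15, SE 0.0636, adjusted p = 6.07e-08), Dnmt1, which copies DNA methylation (log2 fold change 0.74, SE 0.0460, adjusted p = 1.46e-07), and Chaf1b, which assembles new nucleosomes (log2 fold change 0.90, SE 0.0671, adjusted p = 5.78e-07). Of 15 other G1 cyclins, kinases and their activators 11 rose and 0 fell. Among these were Myc (log2 fold change 0.80, SE 0.0478, adjusted p = 1.02e-07), the phosphatase Cdc25a (log2 fold change 0.50, SE 0.0467, adjusted p = 3.43e-06), Cdk4 (log2 fold change 0.34, SE 0.0493, adjusted p = 0.000103), the activator E2f3 (log2 fold change 0.65, SE 0.0998, adjusted p = 0.000170) and the E2F partner Tfdp1 (log2 fold change 0.26, SE 0.0418, adjusted p = 0.000258).

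Genes that restrain the cycle were also among the 27.1% of all genes that rose, where 25.7% fell. Of 27 inhibitors and pocket proteins with a row 17 rose and 3 fell (Rbl2, Gadd45a and Gadd45g). Cdkn1a (the p21 protein), which blocks Cdk2, rose from 309 ± 17.8 to 551 ± 42.9 CPM (log2 fold change 0.83, SE 0.0631, adjusted p = 6.37e-07). Mybl2 (B-Myb), held in that list for its part in the MuvB complex and a driver rather than a brake of the cycle, rose from 31.8 ± 1.01 to 97.2 ± 8.07 CPM (log2 fold change 1.61, SE 0.0631, adjusted p = 9.55e-09). Lin54, the subunit of MuvB that binds DNA, rose too (log2 fold change 0.63, SE 0.0467, adjusted p = 5.42e-07), as did Wee1, which holds Cdk1 inactive (log2 fold change 0.71, SE 0.0520, adjusted p = 4.80e-07), and Ccng1, a target of p53 (log2 fold change 0.63, SE 0.0598, adjusted p = 4.03e-06). Of 62 other mitotic genes with a row 34 rose and 4 fell, with a median log2 fold change of 0.24. The 5 with the smallest adjusted p were Gtse1 (0.93), Hmgb2 (1.14), Kif18a (0.92), Cdc25c (0.70) and Smc2 (0.45), all higher by the log2 fold change given. The 4 that fell were Racgap1, Ckap5, Cit and Tuba1b.

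The promoters of 4 members are shown as examples. Mcm6 and Mcm3 rose with AdMETTL5, and Mki67 rose while belonging to the G2/M class. Cdk1 fell, as did only 4 of the 23 G2/M members tested while 11 rose, and its call was lost on library size alone. The sequences are those of the mouse in RefSeq (build GRCm38.p6), while the change was measured in rat cells. Each covers 250 bases before and 50 bases after the start site, read 5′ to 3′ on the strand of the gene. Capitals mark 3 motifs found on either strand, which are TTTGGCGC, TTTCCCGC, TTTCGCGC or TTTGCCGC (E2F), TTTGAA or TTCGAA (the cell cycle homology region, CHR) and CCAAT.
Mcm6, chr1:128359656-128359955, minus strand: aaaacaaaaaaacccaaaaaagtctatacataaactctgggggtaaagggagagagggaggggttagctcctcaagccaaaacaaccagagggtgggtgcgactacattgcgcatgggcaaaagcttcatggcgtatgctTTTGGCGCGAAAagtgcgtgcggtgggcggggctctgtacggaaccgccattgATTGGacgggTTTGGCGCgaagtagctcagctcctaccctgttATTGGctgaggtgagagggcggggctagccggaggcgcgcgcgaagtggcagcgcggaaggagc
Mcm3, chr1:20820263-20820562, minus strand: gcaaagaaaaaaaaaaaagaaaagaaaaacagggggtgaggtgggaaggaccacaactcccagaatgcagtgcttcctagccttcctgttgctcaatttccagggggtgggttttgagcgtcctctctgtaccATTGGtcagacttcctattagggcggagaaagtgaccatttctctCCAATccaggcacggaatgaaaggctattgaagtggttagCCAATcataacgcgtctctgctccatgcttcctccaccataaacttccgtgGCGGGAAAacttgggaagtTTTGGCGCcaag
Cdk1, chr10:69352863-69353162, minus strand: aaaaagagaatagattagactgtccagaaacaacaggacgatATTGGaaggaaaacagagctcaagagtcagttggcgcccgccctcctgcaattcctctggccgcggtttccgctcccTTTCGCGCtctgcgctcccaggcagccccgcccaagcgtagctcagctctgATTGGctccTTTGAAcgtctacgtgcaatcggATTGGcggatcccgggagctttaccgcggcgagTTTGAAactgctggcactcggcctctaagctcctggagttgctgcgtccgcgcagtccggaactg
Mki67, chr7:135716330-135716629, minus strand: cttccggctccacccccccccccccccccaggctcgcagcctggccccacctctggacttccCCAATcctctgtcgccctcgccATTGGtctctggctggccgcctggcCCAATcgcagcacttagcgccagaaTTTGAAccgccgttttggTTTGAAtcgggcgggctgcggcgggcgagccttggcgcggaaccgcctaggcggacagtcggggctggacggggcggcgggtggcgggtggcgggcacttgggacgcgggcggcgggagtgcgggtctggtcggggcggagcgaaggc

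In these windows, Mcm6 holds E2F letters at 3 places, which start 110, 106 and 47 bases before the start site, and the pair farthest from it overlaps. Mcm3 holds them at 2 places, 19 and 38 bases after the start site. Cdk1 holds 1 match to the E2F letters, 131 bases before the start site, and the CHR letters at 2 places, 71 and 15 bases before it. Mki67 holds the CHR letters at 2 places, 116 and 98 bases before it, and no E2F letters in this window. A promoter was listed for 19 of the 25 G1/S members and for 19 of the 24 G2/M members. E2F letters were found for 9 of the 19 G1/S genes (47.4%), for 1 of the 19 G2/M genes, Cdk1 (5.26%), and in 2.26% of all 32851 promoters listed. CHR letters were found for 4 G1/S genes (21.1%), for 15 G2/M genes (78.9%) and in 19.2% of all promoters. CCAAT was found for 13 G1/S genes (68.4%), for 16 G2/M genes (84.2%) and in 37.4% of all promoters. The member shares count genes with a match in any listed promoter, while the shares over all count each promoter. The measures are therefore unlike. A match describes the letters and does not show that a factor binds.

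After TAC, 2 of the 24 G1/S members tested rose in the METTL5-cKO hearts, Ccnd2 and E2f1, and 0 fell. Over the 16340 genes tested here 6.57% rose and 6.1% fell, so that the share of G1/S members was near the background. None of the 23 G2/M members tested passed edgeR's test or DESeq2, and 2 of them had an unadjusted p under 0.05. Most fold changes were positive all the same, in 20 of 24 G1/S members and 21 of 23 G2/M members, beside 49.4% of all genes. The medians were 0.24 and 0.46 on the log2 scale, beside -0.00351 over all genes. Members share the same libraries, so their signs are not independent. The G2/M sum was 95.9 CPM in METTL5-cKO library 2, above every control. In the other METTL5-cKO libraries it was 40.8 to 51.5 CPM, within the control range of 35.3 to 61.9 CPM. On library size alone the median of all genes was 0.143, those of the classes were 0.40 and 0.62, and 79.7% of all calls were higher, against 51.9% with TMM. The groups did not overlap for Ccnd2 and E2f1 alone among the 47 members tested, both higher, where 9.41% of all genes were higher and 9.16% lower without overlap.

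Ccnd2 (cyclin D2), a D cyclin through which growth signals reach the retinoblastoma protein, read 80.8, 90.0, 83.1 and 71.5 CPM in the control hearts and 153, 188, 160.2 and 135 CPM in the METTL5-cKO hearts. Every METTL5-cKO heart was well above every control. Its log2 fold change was 0.97 (SE 0.113, adjusted p = 0.00408). The call held in all 13 alternatives that kept an adjusted p under 0.05 as the only threshold, with fold changes from 0.88 to 1.12. With an absolute log2 fold change over 1 asked as well, Ccnd2 did not pass. Exons of Ccnd2 (chr6:127125162-127152193, GRCm38) overlap those of 9330179D12Rik and Gm43126 on the other strand, and reads of the strands cannot be told apart where the counting did not use strand. Ccnd1 (cyclin D1) read 53.0, 44.5, 56.3 and 41.8 CPM in the controls and 60.4, 58.1, 49.7 and 45.2 CPM in the METTL5-cKO hearts, with overlapping groups (log2 fold change 0.13).

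E2f1, the activator that starts the S-phase program, read 1.63, 1.17, 1.30 and 1.45 CPM in the controls and 2.32, 3.91, 2.14 and 2.19 CPM in the METTL5-cKO hearts (log2 fold change 0.92, SE 0.229, adjusted p = 0.0319). METTL5-cKO library 2 stood above the other 3. The call was lost without control library 2, 3 or 4 (adjusted p = 0.0850, 0.0758 and 0.0815), without METTL5-cKO library 1 or 2 (0.0566 and 0.0582) and with no filter on low counts (0.0589). The other E2F factors did not pass, with log2 fold changes of 0.68 for E2f8, 0.37 for E2f2 and -0.41 for E2f7.

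Gins2 and Rrm2 varied widely among the METTL5-cKO hearts. Gins2 read 0.446, 1.55, 0.676 and 0.436 CPM in the controls and 0.613, 7.51, 6.30 and 2.14 CPM in the METTL5-cKO hearts, where library 1 lay among the controls (log2 fold change 2.41, SE 0.724, adjusted p = 0.0572). Its exons overlap those of Gse1 on the other strand. Rrm2 read 2.08, 2.28, 2.08 and 1.45 CPM in the controls and 2.01, 12.1, 4.96 and 2.04 CPM in the METTL5-cKO hearts, so that library 2 and, less so, library 3 stood out (log2 fold change 1.42). Without METTL5-cKO library 4, 5 G1/S members passed, which were Ccnd2, E2f1, Gins2 (adjusted p = 0.0348), Rrm2 (0.0431) and E2f8 (0.0189). Gins2 also passed without METTL5-cKO library 1 (adjusted p = 0.0251). Without METTL5-cKO library 2, only Ccnd2 passed. DESeq2 called Ccnd2, E2f1, Gins2 and Rrm2. The helicase genes Mcm2 to Mcm7 had log2 fold changes from 0.08 for Mcm4 to 0.65 for Mcm2, and none passed. The genes that led in NRVMs were low in hearts and overlapped between the groups. Ccne2 read 2.38, 1.46, 1.51 and 1.07 CPM in the controls and 1.93, 2.46, 2.34 and 1.55 CPM in the METTL5-cKO hearts. Cdk2 read 5.89, 6.31, 7.48 and 5.77 CPM in the controls and 6.09, 6.55, 7.91 and 7.33 CPM in the METTL5-cKO hearts. Mcm3 ranged from 2.72 to 4.11 CPM in the controls and from 2.89 to 4.77 CPM in the METTL5-cKO hearts.

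Among the G2/M members the smallest p belonged to Cenpf, a kinetochore protein, which pointed the other way. It read 4.41, 6.17, 4.11 and 6.88 CPM in the controls and 1.79, 4.73, 2.34 and 3.99 CPM in the METTL5-cKO hearts (log2 fold change -0.75, SE 0.300, adjusted p = 0.122). Nusap1 (log2 fold change 0.59, SE 0.245, adjusted p = 0.137) and Anln (log2 fold change 0.88, SE 0.410, adjusted p = 0.177) were next. Nusap1 passed without control library 1 (adjusted p = 0.0484). Mki67 read 8.77, 5.10, 6.55 and 4.26 CPM in the controls and 6.00, 10.1, 7.02 and 4.19 CPM in the METTL5-cKO hearts. Top2a read 5.45, 2.77, 4.05 and 2.33 CPM in the controls and 4.77, 9.15, 4.48 and 2.49 CPM in the METTL5-cKO hearts. In both genes METTL5-cKO library 2 was the highest of the table and library 4 among the lowest. Cdk1 ranged from 0.775 to 2.23 CPM in the controls and from 1.80 to 4.64 CPM in the METTL5-cKO hearts. On the scale of all mouse libraries together, the G2/M sum of METTL5-cKO library 2 was 95.9 CPM, beside 40.8 to 51.5 CPM in the other 3. Mcm10 and Bub1 were too low to test, and Kif20a was listed at 0 in control library 4.

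Markers of other cells moved with the genotype in these hearts, where 6.57% of all genes tested rose and 6.1% fell. Of 12 fibroblast markers 8 rose and 0 fell, and their summed level ranged from 666 to 867 CPM in the controls and from 1041 to 3236 CPM in the METTL5-cKO hearts, with the highest value in library 1 and the lowest in library 4. Of 12 macrophage markers 3 rose and 0 fell (269 to 359 CPM against 368 to 478 CPM). Of 12 endothelial markers 6 fell and 0 rose (1069 to 1278 CPM against 748 to 1004 CPM). Of 12 cardiomyocyte markers tested 3 fell and 0 rose (48881 to 53577 CPM against 38028 to 47319 CPM), and Myl7, an atrial marker, was at 0 in every library. Of 10 markers of smooth muscle and pericytes 1 rose and 1 fell, and 0 of the 4 lymphocyte and 6 erythroid markers tested passed. The part of these markers in the results on Ccnd2 and E2f1 was not tested.

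Few of the other pathway genes passed after TAC, where 6.57% of all genes tested rose and 6.1% fell. Whether the counts in the lists below differ from these shares was not tested. Among 15 other G1 genes 2 rose, Myc from 3.07 ± 0.727 to 7.90 ± 2.12 CPM (log2 fold change 1.36, SE 0.237, adjusted p = 0.0125) and E2f3 (log2 fold change 0.49, SE 0.108, adjusted p = 0.0223). Among 26 inhibitors and pocket proteins tested 1 rose, the antiproliferative gene Btg2 (log2 fold change 0.57, SE 0.128, adjusted p = 0.0232), and 2 fell, which were geminin, Gmnn, a block on origin licensing (log2 fold change -0.41, SE 0.0889, adjusted p = 0.0205), and Cdkn1c, an inhibitor of cyclin-dependent kinases (log2 fold change -0.64, SE 0.166, adjusted p = 0.0366). Among 45 other replication genes 1 rose, Chaf1a (log2 fold change 1.19, SE 0.224, adjusted p = 0.0146), and 2 fell, Timeless (log2 fold change -0.59, SE 0.117, adjusted p = 0.0168) and Pold3 (log2 fold change -0.44, SE 0.123, adjusted p = 0.0454). Among 56 other mitotic genes 3 rose, Plk4 (log2 fold change 0.81, SE 0.181, adjusted p = 0.0231), Tuba1b (log2 fold change 0.34, SE 0.0925, adjusted p = 0.0432) and Spc25 (log2 fold change 1.31, SE 0.370, adjusted p = 0.0473), and 1 fell, securin, Pttg1 (log2 fold change -0.56, SE 0.117, adjusted p = 0.0191). Myc and Chaf1a passed in all 13 alternatives, while the others were lost in 1 to 8 of them.

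**Figure D3:**
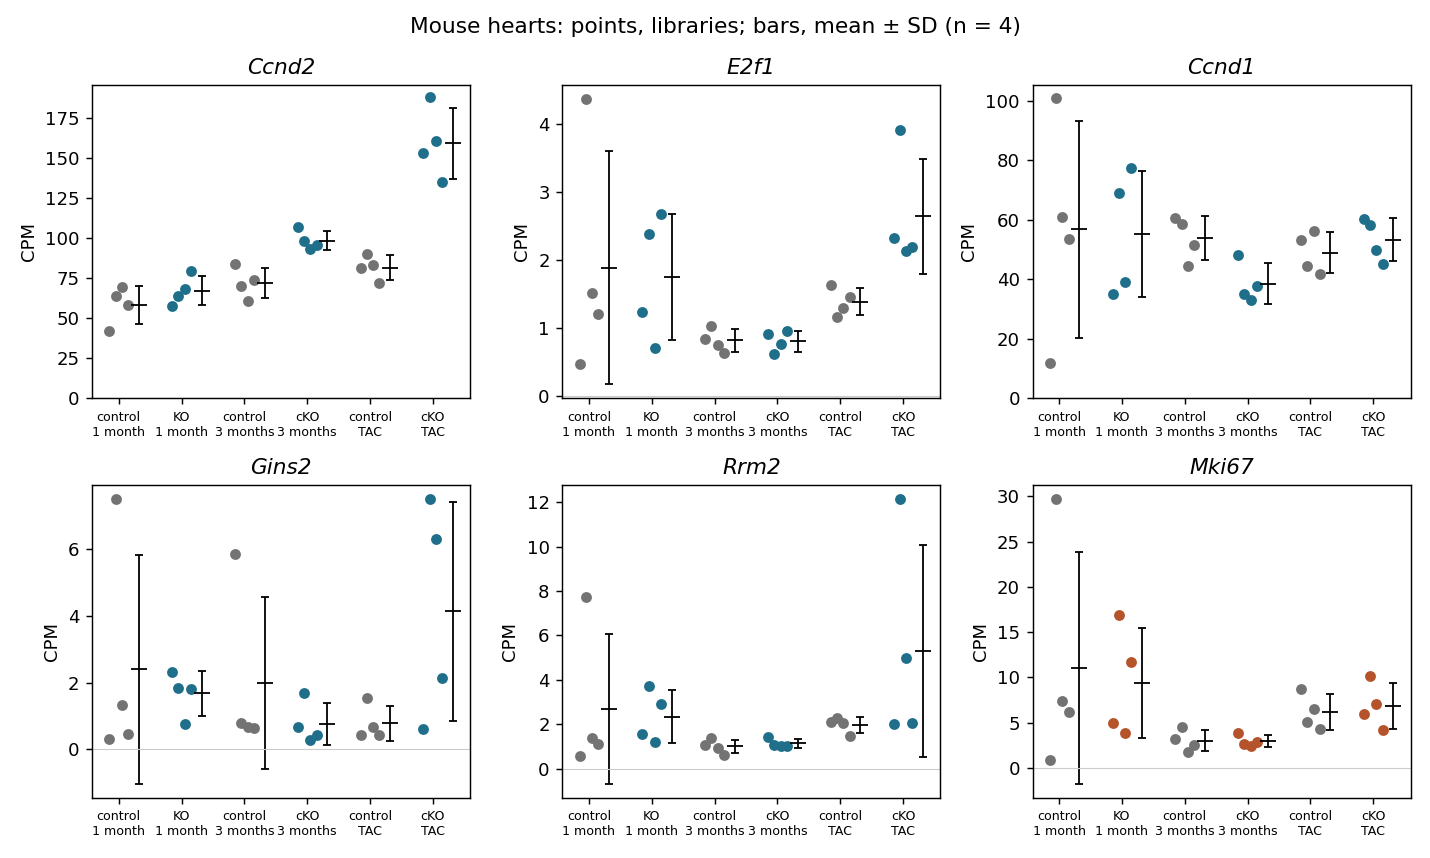
CPM of 6 members in each library of the mouse tables, with grey points for control hearts, coloured points for METTL5-KO or METTL5-cKO hearts, and bars for mean ± SD (n = 4) to the right of each group. Ccnd2 after TAC is 71.5 to 90.0 CPM in controls and 135 to 188 CPM in METTL5-cKO hearts. The METTL5-cKO hearts spread from 0.613 to 7.51 CPM for Gins2 and from 2.01 to 12.1 CPM for Rrm2 after TAC.

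At 3 months without surgery, edgeR called 0 of the 42 members tested (23 G1/S and 19 G2/M), where 0.0488% of the 16391 genes rose and 0.0244% fell. At an unadjusted p under 0.05 there were 4 G1/S members and 1 G2/M member, and DESeq2 called 1 of each, Ccnd2 and Cenpf. The medians were 0.02 and -0.02 on the log2 scale, beside 0.000709 over all genes. The D cyclins pointed in opposite directions. Ccnd2 read 83.6, 69.9, 60.6 and 73.6 CPM in the controls and 106, 97.8, 92.7 and 95.2 CPM in the METTL5-cKO hearts, higher in all 4 without overlap (log2 fold change 0.45, SE 0.106, adjusted p = 0.297). Ccnd1 read 60.6, 58.5, 44.4 and 51.5 CPM in the controls and 48.3, 35.0, 33.0 and 37.7 CPM in the METTL5-cKO hearts, with library 1 above the lowest control (log2 fold change -0.48, SE 0.142, adjusted p = 0.441). Rrm1 was the third G1/S member by p (log2 fold change 0.25, SE 0.109, adjusted p = 0.693). E2f1 ranged from 0.637 to 1.03 CPM in the controls and from 0.608 to 0.951 CPM in the METTL5-cKO hearts.

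Cenpf read 13.6, 6.53, 4.85 and 7.50 CPM in the 3-month controls and 23.8, 18.2, 18.9 and 12.9 CPM in the METTL5-cKO hearts, where only METTL5-cKO library 4 lay within the range of the controls (log2 fold change 1.19, SE 0.297, adjusted p = 0.316). Kif20a, a motor of cytokinesis (log2 fold change -0.42, SE 0.203, adjusted p = 0.738), and Anln (log2 fold change 0.37, SE 0.223, adjusted p = 0.856) came after it. The G2/M members were near the limit of the depth at this age. Cdc6, Chek1, Ccnb1, Cdk1, Aurkb, Bub1 and Cenpe had at most 25 counts in a library and were not tested, and 11 members were listed at 0 in at least 1 library. Fibroblast markers summed to 497 to 647 CPM in the controls and 590.4 to 862 CPM in the METTL5-cKO hearts, and macrophage markers to 179.8 to 237 CPM and 226 to 319.5 CPM, with 0 of 12 called in either list. Cardiomyocyte markers summed to 50403 to 54224 CPM in the controls and 45072 to 50314 CPM in the METTL5-cKO hearts, without overlap. Endothelial markers summed to 924 to 1327 CPM and 718 to 1127 CPM, and all 12 fold changes were negative. In both of these lists 0 of 12 tested were called. The sums of the remaining lists overlapped. The part of these markers was not tested. Of the other pathway genes none passed in 25 inhibitors and pocket proteins, 15 G1 genes, 40 replication genes and 34 mitotic genes.

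Whether the genotype effect after TAC differed from that at 3 months was tested by an interaction term over both tables. It called 0 of 25 G1/S members and 0 of 23 G2/M members, where 0.00586% of 17070 genes had a higher effect after TAC and 0% a lower one. At an unadjusted p under 0.05 there were 4 and 3. Cenpf had the smallest p (difference -1.93, SE 0.460, adjusted p = 0.133), followed by Ccnd2 (difference 0.54, SE 0.160, adjusted p = 0.198). DESeq2 called Cenpf alone among the members, and without METTL5-cKO library 4 of the TAC table edgeR called Ccnd2 (adjusted p = 0.0395) and Cenpf (0.0306). The rise of Ccnd2 after TAC was therefore not shown to differ from its value at 3 months in the fit with all libraries.

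At 1 month edgeR called 0 of the 46 members tested (24 G1/S and 22 G2/M), where 0% of the 16329 genes rose and 0.00612% fell. DESeq2 called 0 as well, and 1 member, Cenpf, had an unadjusted p under 0.05. The control hearts were far apart. Mki67 read 0.860, 29.7, 7.42 and 6.17 CPM in the controls and 4.98, 16.9, 3.88 and 11.7 CPM in the METTL5-KO hearts, so that the METTL5-KO hearts lay within the range of the controls. Top2a also overlapped. It read 0.391, 22.1, 4.76 and 3.40 CPM in the controls and 3.52, 11.4, 2.07 and 9.61 CPM in the METTL5-KO hearts. Ccnd1 read 11.8, 101, 61.0 and 53.7 CPM in the controls and 34.9, 69.1, 39.1 and 77.5 CPM in the METTL5-KO hearts. In all 3 genes control library 1 was the lowest and control library 2 the highest of the 8. Of the marker genes of the 7 cell types 0 were called. Endothelial markers summed to 1371 to 1608 CPM in the controls and 1168 to 1342 CPM in the METTL5-KO hearts, without overlap. All 12 of their fold changes were negative. The sums of the other lists overlapped, and the part of these markers was not tested. Erythroid markers ranged from 459.7 to 4565 CPM in the controls, lowest in library 1 and highest in library 3, and from 827 to 1999.9 CPM in the METTL5-KO hearts.

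The median log2 fold change at 1 month was -0.07 for the G1/S members and -0.22 for the G2/M members, beside -0.00673 over all genes, and both changed sign with control library 2. Without control library 1 they were -0.34 and -0.61, and without control library 2 they were 0.36 and 0.91. Without both they were 0.21 and 0.43, again with 0 members called, an alternative added after the data had been seen. Cenpf read 2.27, 9.63, 6.15 and 6.12 CPM in the controls and 10.6, 15.7, 12.6 and 11.5 CPM in the METTL5-KO hearts, without overlap (log2 fold change 1.06, SE 0.346, adjusted p = 0.973). The next G2/M members by p were Cdc20 (log2 fold change -0.74, SE 0.584, adjusted p = 0.973) and Kif23 (log2 fold change -0.50, SE 0.634, adjusted p = 0.973). The first G1/S members by p were Mcm7 (log2 fold change -0.37, SE 0.204, adjusted p = 0.973), E2f2 (log2 fold change -0.69, SE 0.484, adjusted p = 0.973) and Pcna (log2 fold change 0.30, SE 0.232, adjusted p = 0.973). Ccne1, Ccnb1 and Bub1 were too low to test, and 7 members were listed at 0 in at least 1 library. None of the 26 inhibitors and pocket proteins, 15 G1 genes, 45 replication genes and 57 mitotic genes tested passed.

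**Figure D4:**
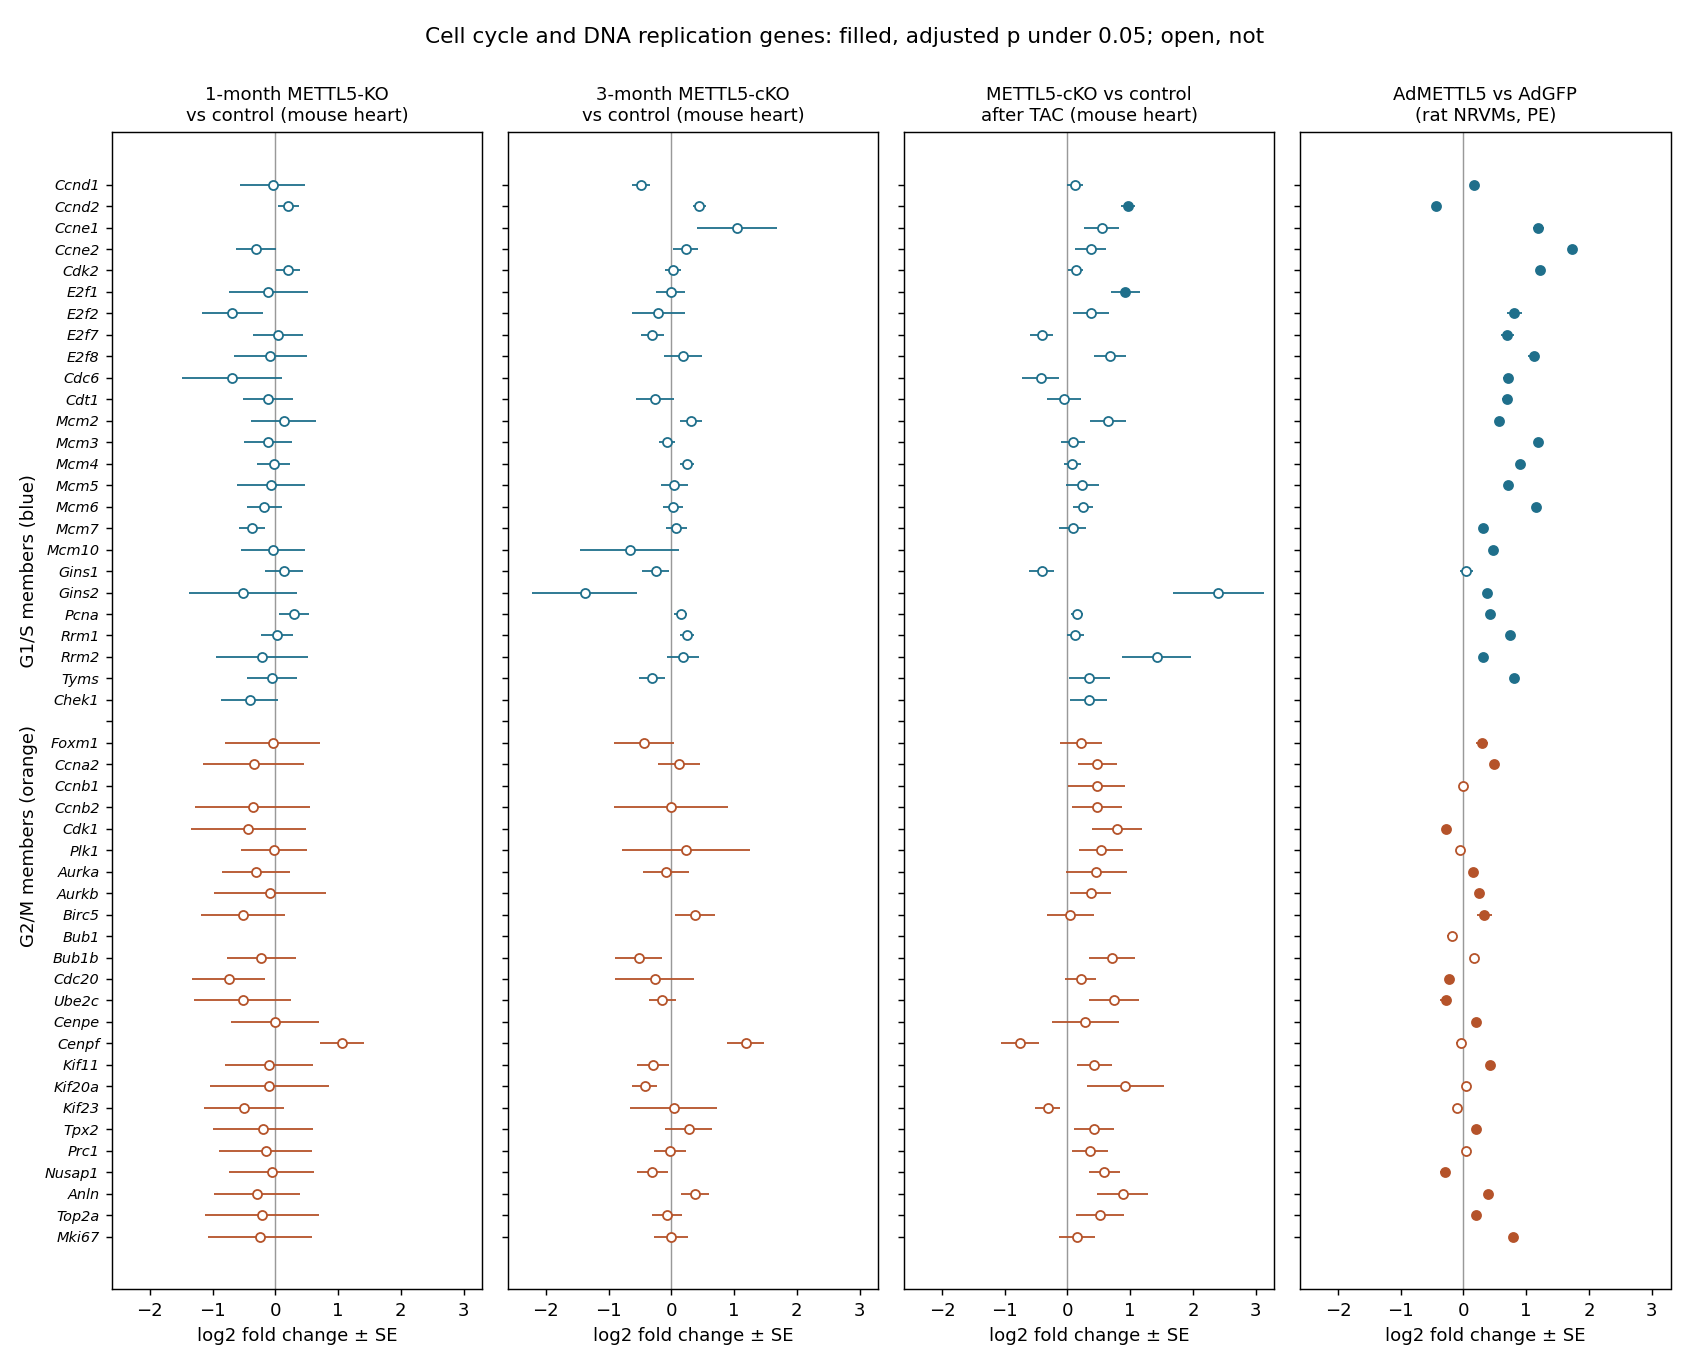
Log2 fold change ± SE of every tested member in the 4 comparisons, with G1/S members in blue, G2/M members in orange, filled symbols where the adjusted p was under 0.05 and open symbols where it was not. Filled symbols stand in the NRVM panel and, for Ccnd2 and E2f1 in the TAC panel.

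Across the 24 mouse libraries, scaled together, Mki67 had the highest mean in the 1-month hearts, at 11.8 ± 13.8 CPM in controls and 9.97 ± 6.50 CPM in METTL5-KO hearts (SD, n = 4). It was 5.97 ± 1.90 CPM in controls and 6.69 ± 2.45 CPM in METTL5-cKO hearts after TAC, and 2.88 ± 1.10 CPM and 2.86 ± 0.614 CPM at 3 months. Within each pair the groups differed by less than their spread. The genes whose log2 CPM followed Mki67 most closely over these 24 libraries were Top2a (Pearson r = 0.986), Ccna2 (0.969), Iqgap3 (0.963), Tpx2 (0.954) and Prc1 (0.954). Of these, 4 are members and Iqgap3, a scaffold of the cell cortex, is not. The correlations describe libraries that share ages, surgery and depth within a table. Among the 49 members, exons of 17 overlap those of another gene in the mouse annotation, 15 of them on the other strand.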

How the data were processed

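RNA-seq tables of 24 mouse heart and 8 rat NRVM libraries were used. The submitters' processing notes name HISAT2 2.0.4, StringTie 2.1.4 and the builds GRCm38 and Rnor_6.0, with which the authors made expected counts per gene, given as whole numbers. The deposited tables list these estimated counts without scaling. Whether strand was used in counting is not given in the sources used here. Columns of the 1-month table were matched to samples and the others to groups only, and their libraries were numbered by the number in the column name.

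Each table had its own fit. Genes were kept by filterByExpr (minimum count 10, minimum total count 15) and tested by glmQLFTest in edgeR 4.0.16 under R 4.3.3, after TMM scaling and glmQLFit. All genes tested entered the Benjamini-Hochberg adjustment. The effects after TAC and at 3 months were compared by an interaction term. Planned as plain counts, the values turned out to be estimated counts in whole numbers, which rounding did not change. The fits were tested on simulated data. No 2 libraries of a group were alike within sampling noise, since chi-square over its degrees of freedom was at least 2.20 for every pair. The biological coefficient of variation fitted by edgeR was lowest in NRVMs (0.0675) and highest at 1 month (0.221).

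The members and lists were chosen with earlier results of these data known. In each comparison, members past the threshold were named, with at least the 3 of smallest p in each class and full statistics for at most 15 of a class, and the 5 genes of smallest adjusted p in each pathway list. Gins1 in NRVMs and members shown by their levels were singled out after their values were seen. Alternatives were DESeq2 1.42.0, its size factors, library size alone, other filters, a minimum fold, unadjusted p, a replicate block and leaving out each library. Positions and exon overlaps come from GENCODE for GRCm38, and none are given for the rat.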

Additional observations from a re-analysis of the deposited data

Results flagged for a closer look

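In 10 of 126 groups of 4 libraries tested, 1 library lay farther from the rest than Dixon's critical value at 95% allows, and chance gives about 1 in 20. Rrm1 read 9.32 CPM in control at 3 months library 1, with 7.37 to 7.54 CPM in the other 3 libraries of its group. E2f1 read 3.91 CPM in METTL5-cKO after TAC library 2, with 2.14 to 2.32 CPM in the other 3 libraries of its group. Tyms read 32.3 CPM in AdGFP library 3, with 28.2 to 28.8 CPM in the other 3 libraries of its group. Cdt1 read 16.5 CPM in AdGFP library 2, with 20.4 to 20.9 CPM in the other 3 libraries of its group. Ccnd2 read 59.9 CPM in AdMETTL5 library 4, with 52.5 to 53.6 CPM in the other 3 libraries of its group. Mki67 read 144 CPM in AdMETTL5 library 1, with 159 to 159.9 CPM in the other 3 libraries of its group. Ccna2 read 32.7 CPM in AdGFP library 2, with 34.3 to 34.6 CPM in the other 3 libraries of its group. Kif11 read 41.4 CPM in AdMETTL5 library 2, with 34.7 to 35.3 CPM in the other 3 libraries of its group. Top2a read 80.9 CPM in AdGFP library 2, with 92.0 to 93.1 CPM in the other 3 libraries of its group. Foxm1 read 34.9 CPM in AdMETTL5 library 2, with 44.1 to 45.8 CPM in the other 3 libraries of its group. In the AdGFP group library 2 was the lowest for 3 of these genes, and in the AdMETTL5 group library 2 was set apart for 2. In the fit of all libraries by edgeR, 0 members had a genotype effect that differed between TAC and 3 months, 4 G1/S and 3 G2/M members had an unadjusted p under 0.05, and DESeq2 called 1, Cenpf.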

How the results depend on the processing

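At an unadjusted p under 0.05 the members called were 0 G1/S and 1 G2/M at 1 month, 4 and 1 at 3 months, 7 and 2 after TAC, 22 and 17 in NRVMs, and 4 and 3 for the interaction. DESeq2 called 1 and 1 at 3 months, 4 G1/S members after TAC, and 1 G2/M member in the interaction. With an absolute log2 fold change over 1 as well, 6 G1/S and 0 G2/M members remained past both thresholds in NRVMs, and 0 after TAC. With no filter on low counts 1 G1/S member passed after TAC, and with library size alone 3 did. Leaving out 1 library gave 1 to 5 G1/S and 0 to 1 G2/M members after TAC, 0 to 1 of each for the interaction, 22 G1/S and 12 to 15 G2/M members in NRVMs, and 0 at 1 and 3 months. Kif23 at 1 month went from -0.50 to 0.39 on the log2 scale without control library 2, and was -0.86 without control library 1. Of 741 pairs of a named gene and an alternative in NRVMs 24 lost the call, and of 233 after TAC 61 lost it and 5 gained it. The causes were not tested. At 1 month the correlations of deviations between libraries with the same number were 0.239, 0.120, -0.107 and 0.0782. So few pairs cannot decide whether the numbers pair the samples. The fit with the replicate block called 0 G1/S and 0 G2/M members, with medians of 0.10 and 0.15. Without the block these medians were -0.07 and -0.22. The block was not run in the other tables, because their columns carry no replicate number shared between the groups. Low counts limit the mouse values, where 7, 11 and 3 members were at 0 in at least 1 library at 1 month, at 3 months and after TAC.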
